A study of Mus musculus with 6 samples.

Results

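The genes of fatty acid synthesis and lipid storage were measured in macrophages differentiated from mouse bone marrow and treated with thiothixene. The set holds 34 genes of the 56691 gene rows counted. They were chosen by name for their roles in making, lengthening, desaturating and activating fatty acids and in building, coating and breaking down lipid droplets. All 34 matched a row, and all 34 passed the filter on low counts.

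Macrophages from 3 mice, named a, b and c, received 2 µM thiothixene or the solvent DMSO for 24 h from day 6 of culture. Thiothixene is an antipsychotic, an antagonist of dopamine receptors. Both treatments were applied to cells of every mouse, which makes 3 libraries with the drug and 3 with solvent alone, named below by treatment and mouse (DMSO b). The sources used here do not give strain, sex or age of the mice. The study's title concerns antipsychotics, dopamine signalling and repeated efferocytosis, the uptake of dead cells by macrophages.

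Fatty acids are built in the cytosol from acetyl-CoA, which is carboxylated to malonyl-CoA and then polymerised by fatty acid synthase. The products are elongated and desaturated at the endoplasmic reticulum, joined to coenzyme A and esterified to glycerol. The resulting triglyceride is stored in droplets coated by perilipins and released by lipases. SREBP-1c and the liver X receptors drive many of these genes. Macrophages that take up dead cells or lipoproteins form such droplets, and a droplet-laden macrophage is called a foam cell.

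Gene counts per library ran from 10472349, in the DMSO b library, to 22297520. The thiothixene a, DMSO b and DMSO c libraries stood apart, with the deviations from the median library that correlated most with GC content over all tested genes (-0.48, 0.35 and -0.53). Unaligned reads made up 4.98% of counts in the thiothixene a library and 4.52% in the DMSO c library. In the rest they made up 1.85% to 2.31%, and their part in the results was not tested. The DMSO libraries differed widely: log2 levels over all tested genes correlated at 0.825 between mice b and c with DMSO and at 0.981 between mice b and c with thiothixene (a description across genes). Of 10 macrophage markers, 9 were abundant enough to test and the list summed to 9571 to 11310 CPM with thiothixene and 9963 to 17550 CPM with DMSO, while Itgam, which encodes the integrin CD11b, had 1 count in all 6 libraries together. Adipocyte markers were almost absent, with 6 of 8 listed at 0 counts, among them Plin1, Cidec and Lep, and a summed level of 0 to 0.0493 CPM with thiothixene and 0 to 0.447 CPM with DMSO. CPM are gene counts scaled to library size and composition. Neutrophil markers summed to 337 to 405 CPM with thiothixene and 368 to 862 CPM with DMSO, highest in the DMSO b library, and stromal markers to 57.5 to 301 against 102 to 177 CPM. The part of these cells in the results was not tested. Lymphoid, mast cell, erythroid and dendritic markers each summed to 3.81 CPM or less with thiothixene and 7.37 CPM or less with DMSO.

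No member passed the test across all 14856 tested genes. In edgeR's quasi-likelihood test 0 of 34 members had an adjusted p under 0.05, beside 0% of all tested genes, and the adjusted p of each member was 0.9998. DESeq2 and limma-voom also called 0 members. At an unadjusted p under 0.05 there were 3 members higher, Mgll, Scd2 and Fasn, and 0 lower, against 0.882% of tested genes higher and 0.841% lower. Levels of 5 members, Acaca, Scd2, Fads2, Elovl6 and Mgll, were higher in every thiothixene library than in every DMSO library, which was 14.7% of members against 3.88% of tested genes. No member lay lower in every thiothixene library, against 2.77% of tested genes. Leaving out a library can only keep or raise the counts of genes whose groups do not overlap, for members as for all tested genes. Without the DMSO a library, 9 members lay higher and 2 lower (10.6% and 8.32% of tested genes), and without the DMSO c library, 9 and 3 (11% and 10.6%). Without the DMSO b library, 8 lay higher and 0 lower (8.45% and 8.6%), and without the thiothixene a library, 9 and 0 (9.04% and 7.07%). Without the thiothixene b library, 6 lay higher and 0 lower (5.14% and 4.02%), and without that of mouse c, 6 and 1 (5.86% and 4.48%).

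**Figure D1:**
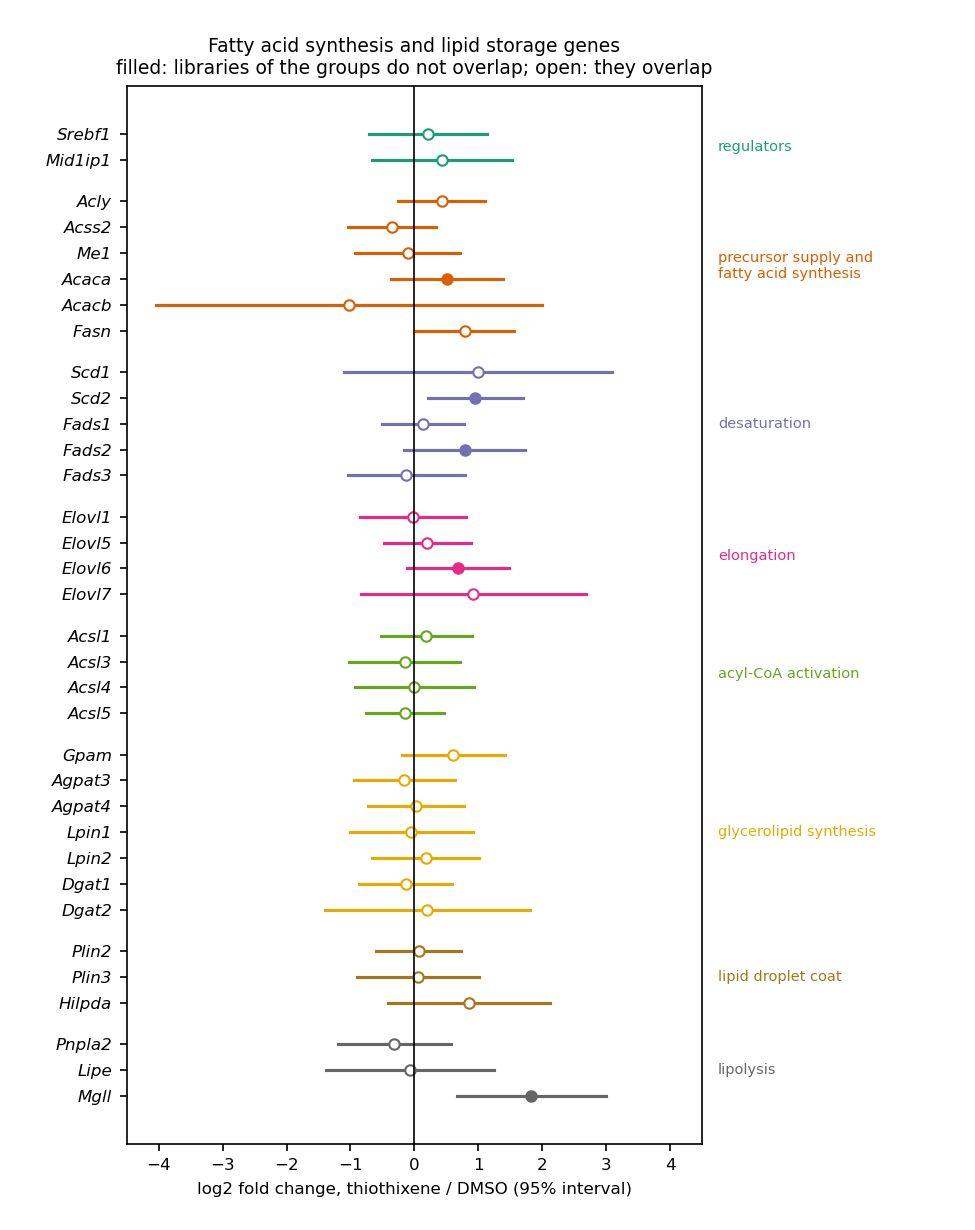
Log2 fold change of each of the 34 genes, thiothixene over DMSO, with its 95% interval from edgeR, in blocks by role; filled points mark the 5 genes whose libraries do not overlap between the groups. The intervals of Mgll, Scd2 and Fasn lie above 0, the other 31 include 0, and none of the 34 passed the adjusted threshold.

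Promoter stretches are shown for Fasn and Mgll, the members with an unadjusted p under 0.05 that had a RefSeq window, and for Fads2, a desaturase gene whose groups did not overlap; they were chosen after their values were seen. Each is the 200 bases before the RefSeq start site on its own strand (GRCm38.p6), written 5′ to 3′. For Fads2 that start site differs from the end of the gene bounds given below (chr19:10062765-10101746, minus strand). The Fads2 stretch therefore lies inside those bounds, while the Fasn and Mgll stretches adjoin theirs. Capitals mark matches to the motifs named below. Fasn lies at chr11:120824548-120824747 (minus strand), Fads2 at chr19:10101504-10101703 (minus strand) and Mgll at chr6:88724212-88724411 (plus strand).
Fasn: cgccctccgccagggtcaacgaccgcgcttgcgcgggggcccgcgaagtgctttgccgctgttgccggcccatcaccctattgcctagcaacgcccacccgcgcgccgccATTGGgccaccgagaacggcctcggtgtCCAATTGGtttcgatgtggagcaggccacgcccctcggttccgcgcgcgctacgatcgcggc
Fads2: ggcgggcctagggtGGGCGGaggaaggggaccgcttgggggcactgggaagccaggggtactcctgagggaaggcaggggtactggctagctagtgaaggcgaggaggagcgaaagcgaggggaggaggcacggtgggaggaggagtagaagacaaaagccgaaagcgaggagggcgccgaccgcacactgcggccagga
Mgll: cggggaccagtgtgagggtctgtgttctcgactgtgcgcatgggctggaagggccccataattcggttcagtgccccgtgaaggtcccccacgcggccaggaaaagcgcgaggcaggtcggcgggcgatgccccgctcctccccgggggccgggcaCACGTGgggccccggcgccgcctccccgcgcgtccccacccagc
All 3 stretches are rich in G and C, at 70.5% in Fasn, 67% in Fads2 and 73.5% in Mgll. Fasn holds 3 matches to CCAAT, the box read by NF-Y, which start 90, 62 and 59 bases before the start site; the first and the last are on the opposite strand, and the last pair overlap. Fads2 holds a GC box, GGGCGG, and Mgll an E-box, CACGTG, 44 bases before its start site.

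Motifs were counted on both strands in windows from 250 bases before to 50 after the start site, which RefSeq gave for 29 of the 34 members. CCAAT was in a window of 17 members (58.6%), against 41.1% of 27025 genes and 37.4% of 32851 windows. GGGCGG was in 20 members (69%), against 38.2% of genes and 35.7% of windows. CACGTG was in 5 members, Elovl5, Lpin2, Plin2, Lipe and Mgll (17.2%), against 8.09% of genes and 7.15% of windows. The sterol regulatory element TCACNCCAC was in 1 member, Acsl1 (3.45%), against 1.4% of genes and 1.24% of windows. The DR4 direct repeat, a form bound by liver X receptors, was in 0 members and 0.0148% of genes. A match is a description of letters in the window and not evidence of binding.

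The regulators gave no separation of the groups. Srebf1, which encodes SREBP-1, the transcription factor of the pathway (ENSMUSG00000020538.16), measured 50.1, 72.2 and 88.2 CPM with thiothixene in mice a, b and c and 76.7, 73.7 and 31.7 CPM with DMSO. The thiothixene library was the higher in 1 of 3 mice, and the log2 fold change was 0.21 (SE 0.40). Mid1ip1, a small protein that promotes polymerisation of acetyl-CoA carboxylase, measured 47.0, 101 and 117 CPM with thiothixene against 69.4, 95.1 and 32.7 CPM with DMSO (fitted log2 fold change 0.43, SE 0.48). In both genes the DMSO c library was the lowest of the 6, the thiothixene a library came second lowest, and the groups overlapped.

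Among the enzymes of precursor supply and synthesis, Acly, Acaca and Fasn had higher means with thiothixene, and Acss2, Me1 and Acacb lower ones. Acly, ATP citrate lyase, which makes cytosolic acetyl-CoA (ENSMUSG00000020917.18), measured 207, 250.3 and 250.3 CPM with thiothixene and 212, 127 and 187 CPM with DMSO. Its groups overlapped through mouse a, where the DMSO library was slightly the higher, and the log2 fold change was 0.43 (SE 0.30). Acaca, acetyl-CoA carboxylase 1, which makes malonyl-CoA for synthesis (ENSMUSG00000020532.19, chr11:84129672-84401651, plus strand, GRCm38), measured 60.9, 61.7 and 62.1 CPM with thiothixene. With DMSO it measured 50.3, 21.4 and 58.0 CPM. The thiothixene libraries were nearly equal, and the nearest DMSO library, that of mouse c, lay close below them. The log2 fold change of Acaca was 0.51 (SE 0.38, 95% interval -0.37 to 1.39), and it was 0.19 without the DMSO b library.

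Fasn, fatty acid synthase (ENSMUSG00000025153.10, chr11:120805846-120824547, minus strand, GRCm38), measured 127, 185 and 205 CPM with thiothixene and 127, 101 and 69.6 CPM with DMSO in mice a, b and c. The groups met at mouse a, whose libraries were level, while mice b and c differed by 0.87 and 1.56 on the log2 scale. The fitted log2 fold change was 0.80 (SE 0.33, 95% interval 0.03 to 1.56), a 1.73-fold difference of means (172 ± 40.4 against 99.4 ± 28.8 CPM, SD, n = 3). By edgeR's unadjusted p of 0.0432 it ranked at place 219 of all tested genes. With GC and length offsets the log2 fold change was 0.56.

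The other members of this role differed by less than the spread between libraries. Acss2, which makes acetyl-CoA from acetate, ran from 18.3 to 20.3 CPM with thiothixene and from 20.0 to 30.5 CPM with DMSO. It was the sole member that was lower with thiothixene in all 3 mice (6.87% of tested genes were), at a log2 fold change of -0.35 (SE 0.30). Me1, malic enzyme, a source of NADPH, was at -0.10 (SE 0.36). Acacb, the carboxylase that regulates fatty acid oxidation, had 6, 4 and 13 counts with thiothixene and 26, 11 and 0 counts with DMSO, where a count of 0 in mouse c allows up to 0.128 CPM for counting error only. Its log2 fold change of -1.02 (SE 1.32) was the furthest below 0 among the members. It was 0.62 in limma-voom, -1.61 without the thiothixene c library and -1.63 without the DMSO c library.

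The desaturases held 2 of the 5 members whose groups did not overlap, Scd2 and Fads2. Scd2, a stearoyl-CoA desaturase that places a double bond in saturated fatty acids (ENSMUSG00000025203.7, chr19:44293674-44306864, plus strand, GRCm38), measured 44.5, 79.2 and 67.1 CPM with thiothixene. Its DMSO libraries measured 39.3, 32.8 and 26.3 CPM. The thiothixene library was the higher in 3 of 3 mice, with the least distance in mouse a (0.18 on the log2 scale, against 1.27 and 1.35 in mice b and c). The log2 fold change was 0.95 (SE 0.32, 95% interval 0.21 to 1.70; 63.6 ± 17.6 against 32.8 ± 6.47 CPM, SD, n = 3), and edgeR's unadjusted p was 0.0178. Scd2 was between 0.77 and 1.16 in all 15 alternative fits.

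Fads2, the delta-6 desaturase that starts the synthesis of long polyunsaturated fatty acids (ENSMUSG00000024665.9, chr19:10062765-10101746, minus strand, GRCm38), measured 5.41, 9.45 and 8.29 CPM with thiothixene and 3.44, 5.14 and 4.86 CPM with DMSO. The groups came close, at 5.41 against 5.14 CPM, but the thiothixene library was the higher by 0.64 to 0.87 on the log2 scale in each mouse. The log2 fold change was 0.79 (SE 0.41, 95% interval -0.15 to 1.73). Fads1, the delta-5 desaturase of the same pathway and the desaturase gene of highest level per kilobase of exon, measured 91.8, 114 and 96.7 CPM against 109, 93.8 and 72.7 CPM, with overlapping groups and a log2 fold change of 0.14 (SE 0.28). Fads3, a related desaturase, was at -0.12 (SE 0.40). Scd1, the paralog of Scd2, had 41, 27 and 46 counts with thiothixene and 4, 4 and 50 counts with DMSO (log2 fold change 1.00, SE 0.91). Its DMSO c library lay among the thiothixene libraries, and those of mice a and b far below. Without the DMSO c library the log2 fold change of Scd1 was 2.69, without the DMSO a library 0.52 and without the 3 libraries that stand apart 3.34. With the mouse as a block it was 1.64. Sharing of reads between Scd1 and Scd2 was not measured, so both levels are uncertain.

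**Figure D2:**
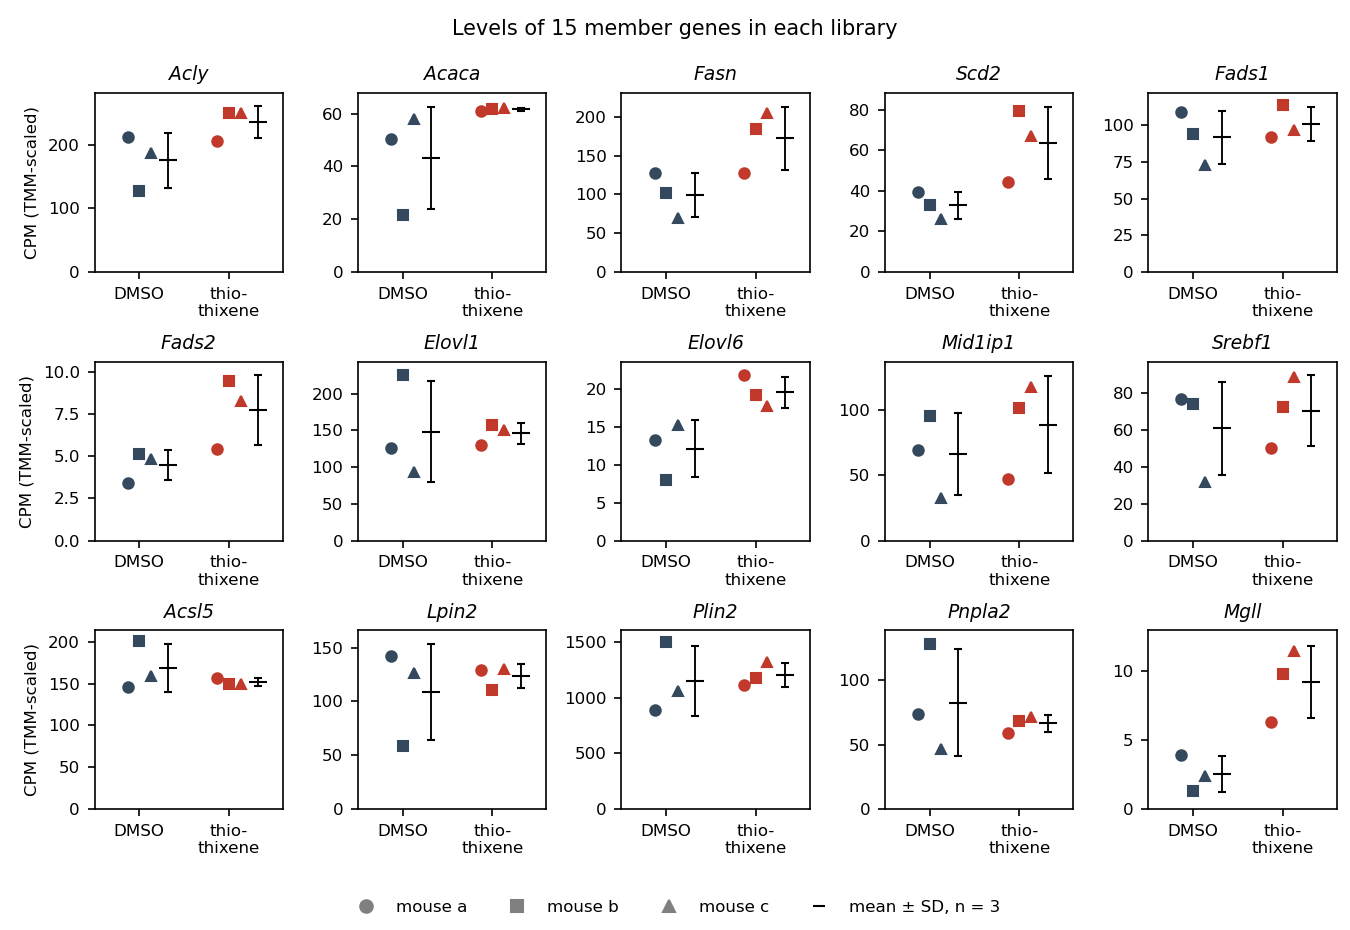
Levels of 15 genes in each library, in CPM on linear axes that start at 0; symbols mark the mouse, and bars give mean ± SD of 3 libraries. Acaca, Scd2, Fads2, Elovl6 and Mgll have every thiothixene point above every DMSO point. By SD, the thiothixene points are the more widely spread in Fasn, Scd2, Fads2, Mid1ip1 and Mgll. The DMSO points are the more widely spread in the other panels, among them Acaca, Elovl1, Lpin2 and Pnpla2.

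Of the elongases, Elovl6, which extends palmitate to stearate (ENSMUSG00000041220.11, chr3:129532355-129638495, plus strand, GRCm38), measured 21.8, 19.2 and 17.8 CPM with thiothixene and 13.3, 7.93 and 15.2 CPM with DMSO. The groups did not overlap, and the log2 fold change was 0.69 (SE 0.35, 95% interval -0.11 to 1.49). Elovl1, which extends very long saturated chains and had the highest level per kilobase among the elongase genes, measured 130.0, 157 and 151 CPM with thiothixene and 126, 225 and 92.8 CPM with DMSO. All 3 thiothixene libraries of Elovl1 were inside the range of the DMSO libraries, and its log2 fold change was -0.02 (SE 0.36). Elovl5, an elongase of polyunsaturated chains, was at 0.20 (SE 0.30), and Elovl7, with 8 to 42 counts per library, at 0.92 (SE 0.77).

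The acyl-CoA synthetases, which activate fatty acids for esterification or oxidation, had log2 fold changes between -0.15 and 0.19, all with overlapping groups. Acsl5, highest among them per kilobase, measured 157, 149.9 and 149 CPM with thiothixene and 146, 201 and 159 CPM with DMSO (fitted log2 fold change -0.15, SE 0.26, 95% interval -0.75 to 0.46). Log2 fold changes were 0.19 (SE 0.31) for Acsl1, -0.15 (SE 0.38) for Acsl3 and -0.00 (SE 0.41) for Acsl4, which prefers arachidonate. The level of Acsl4 ran from 53.2 CPM in the DMSO b library to 155 CPM in that of mouse c, with all thiothixene libraries in between.

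Glycerolipid synthesis gave 4 of 7 genes above 0 and 3 below, with none apart. Gpam, the mitochondrial acyltransferase of the first step, was the only member of this role higher with thiothixene in all 3 mice, at 29.4, 24.5 and 22.3 against 23.2, 11.8 and 14.7 CPM (log2 fold change 0.61, SE 0.35). The value for Gpam was 0.02 without the 3 libraries that stand apart, 0.42 without the DMSO b library and 0.94 without the DMSO a library. Lpin2, a phosphatidate phosphatase and the gene of highest CPM in the role, measured 129, 110.5 and 130.2 CPM with thiothixene and 142, 58.2 and 126 CPM with DMSO (fitted log2 fold change 0.18, SE 0.36). Its DMSO b library lay far below the other 5. The acyltransferase genes Agpat3 and Agpat4 were at -0.16 (SE 0.34) and 0.03 (SE 0.33), and the phosphatase gene Lpin1 at -0.05 (SE 0.42). Dgat1 and Dgat2, whose products form triglyceride from diglyceride, were at -0.14 (SE 0.32) and 0.21 (SE 0.70), the latter with 12 to 43 counts per library.

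Plin2, the main droplet coat protein of macrophages (ENSMUSG00000028494.13, chr4:86648386-86670060, minus strand, GRCm38), was by far the highest member. It measured 1116, 1177 and 1322 CPM with thiothixene and 890.1, 1497 and 1063 CPM with DMSO. The DMSO a and DMSO b libraries held the lowest and the highest level, and the log2 fold change was 0.07 (SE 0.29, 95% interval -0.60 to 0.73). Plin3, a coat protein that moves to new droplets, was at 0.05 (SE 0.42). Hilpda, an inhibitor of the lipase ATGL, measured 5.6, 9.13 and 9.37 CPM against 3.35, 8.04 and 2.13 CPM; it was higher with thiothixene in 3 of 3 mice, yet the groups overlapped (log2 fold change 0.85, SE 0.56). The value for Hilpda was 1.55 without the DMSO b library, 0.52 without the DMSO c library and 1.47 without the 3 libraries that stand apart.

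The lipase genes did not share a direction. Mgll, monoacylglycerol lipase, which releases the last fatty acid from glycerol and also degrades the endocannabinoid 2-arachidonoylglycerol (ENSMUSG00000033174.18, chr6:88724412-88828360, plus strand, GRCm38), measured 6.32, 9.77 and 11.4 CPM with thiothixene. With DMSO it measured 3.89, 1.34 and 2.39 CPM, from 87, 12 and 56 counts. Every thiothixene library was above every DMSO library, and the log2 fold change was 1.83 (SE 0.51, 95% interval 0.67 to 2.99), a 3.56-fold difference. This was the member of smallest p, with an unadjusted p of 0.00641 in edgeR, place 35 of all tested genes. The estimate for Mgll was 1.55 without the DMSO b library, 1.45 without the 3 libraries that stand apart and 2.28 without the DMSO a library.

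Pnpla2, which encodes ATGL, the lipase of the first step, measured 59.2, 68.6 and 71.4 CPM with thiothixene and 73.5, 128 and 46.3 CPM with DMSO (fitted log2 fold change -0.31, SE 0.39). Lipe, hormone-sensitive lipase, ran from 10.04 to 15.6 CPM with thiothixene and from 3.88 to 21.7 CPM with DMSO (-0.07, SE 0.57). In both lipase genes the DMSO b and DMSO c libraries enclosed all thiothixene libraries.

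Between members, levels were set side by side per kilobase of exon (CPM per kb, mean of 3 libraries, thiothixene then DMSO). Plin2 stood at 343 and 327.5 CPM per kb, followed by Elovl1 (53.6 and 54.3), Acly (44.7 and 33.2), Mid1ip1 (41.6 and 30.9) and Acsl5 (31.3 and 34.7). In 3 pairs of related enzymes a single gene carried most of the transcript. Acaca stood at 3.61 and 2.53 CPM per kb against 0.0395 and 0.0827 for Acacb. Scd2 stood at 11.6 and 6.00 CPM per kb against 0.386 and 0.188 for Scd1. Dgat1 stood at 5.46 and 6.02 CPM per kb against 0.451 and 0.392 for Dgat2. The exons of Acacb, Scd1 and Dgat2 overlap no other gene in the annotation used. Exons of Mid1ip1, Lipe, Acsl1, Acss2 and Acsl5 overlap a gene on the opposite strand over 25.5%, 15.6%, 9.91%, 9.12% and 8.31% of their length. This share was 3.29% for Mgll (Gm26588), 1.94% for Elovl1, 1.93% for Srebf1, 0.78% for Me1, 0.529% for Elovl6 and 0.205% for Agpat3. On the same strand, Acsl3 shared 5.6% of its exon length with Utp14b, Srebf1 1.17% and Scd2 1.12% with Mir5114. The strand setting of the counting is not given in the sources used here, so the levels of these genes are uncertain to that extent.

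Within mice, the members were higher with thiothixene for 18 of 34 genes in mouse a, 19 in mouse b and 27 in mouse c. Of all tested genes, 47.9%, 50.6% and 51.9% were higher with thiothixene in mice a, b and c. The median within-mouse log2 difference of the members was 0.05, 0.23 and 0.42, beside -0.03, 0.01 and 0.05 over all tested genes. Acaca, Scd1, Scd2, Fads2, Elovl6, Gpam, Hilpda and Mgll, 8 members or 23.5%, were higher with thiothixene in 3 of 3 mice, as were 7.49% of tested genes. Over the whole fit 21 of 34 members (61.8%) had a fitted value above 0 (median log2 fold change 0.16), while 45.3% of all tested genes did (median -0.04).

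**Figure D3:**
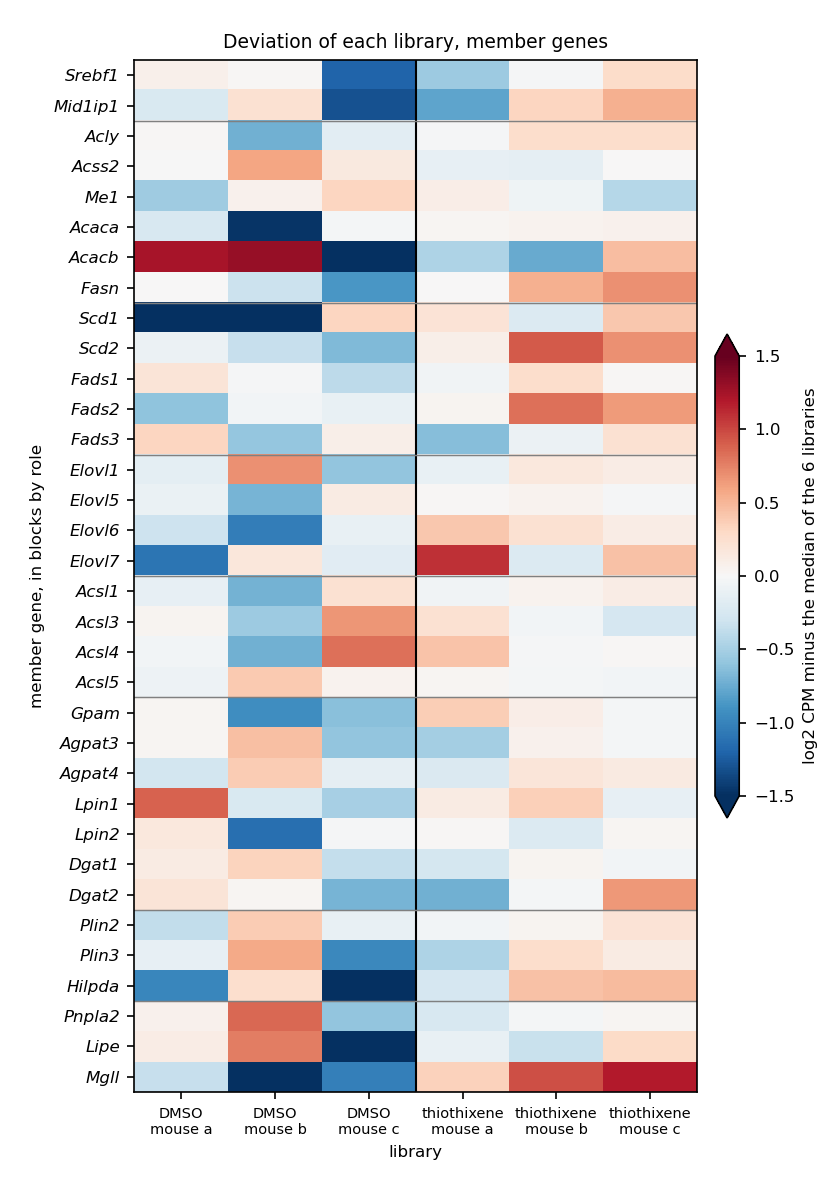
Log2 CPM of each of the 34 genes in each library, minus the median of the 6 libraries (red above, blue below, colours saturate at 1.5), in blocks by role. The DMSO b and DMSO c libraries carry most of the strong colours, often of opposite sign, while the thiothixene b and thiothixene c libraries are red in Fasn, Scd2, Fads2 and Mgll and paler in most other genes.

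The spread of the members was larger with DMSO than with thiothixene. The median coefficient of variation was 17.4% over the thiothixene libraries and 35.3% over the DMSO libraries, and the DMSO value was the larger for 30 of 34 members (88.2%). Over all tested genes it was the larger for 84%, with medians of 20.7% and 43.8%, and the members' share was near that background. The DMSO b library was the highest of the 6 for 11 members and the lowest for 10, and that of mouse c the highest for 5 and the lowest for 14. Over all tested genes the DMSO b library was the highest for 33.9% and the lowest for 33.9%. The DMSO c library was the highest for 27.1% of them and the lowest for 31.7%.

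The position of a library moved with the GC content of the transcripts. Across the 34 members, the deviation of a library from the median of the 6 correlated with GC content at -0.70 for the DMSO c library and -0.68 for the thiothixene a library (Pearson's r, a description across genes of the same libraries). It correlated at 0.39 for the DMSO b library and 0.44 for the thiothixene c library. Over 14565 genes these values were -0.53, -0.48, 0.35 and 0.31. With GC and length offsets 23 of 34 members were above 0 and the median was 0.08, with Mgll at 1.62, Scd2 at 0.87, Fads2 at 0.65, Elovl6 at 0.64 and Acaca at 0.38. In bulk libraries, fewer cells of a kind and less RNA per cell cannot be told apart.

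**Figure D4:**
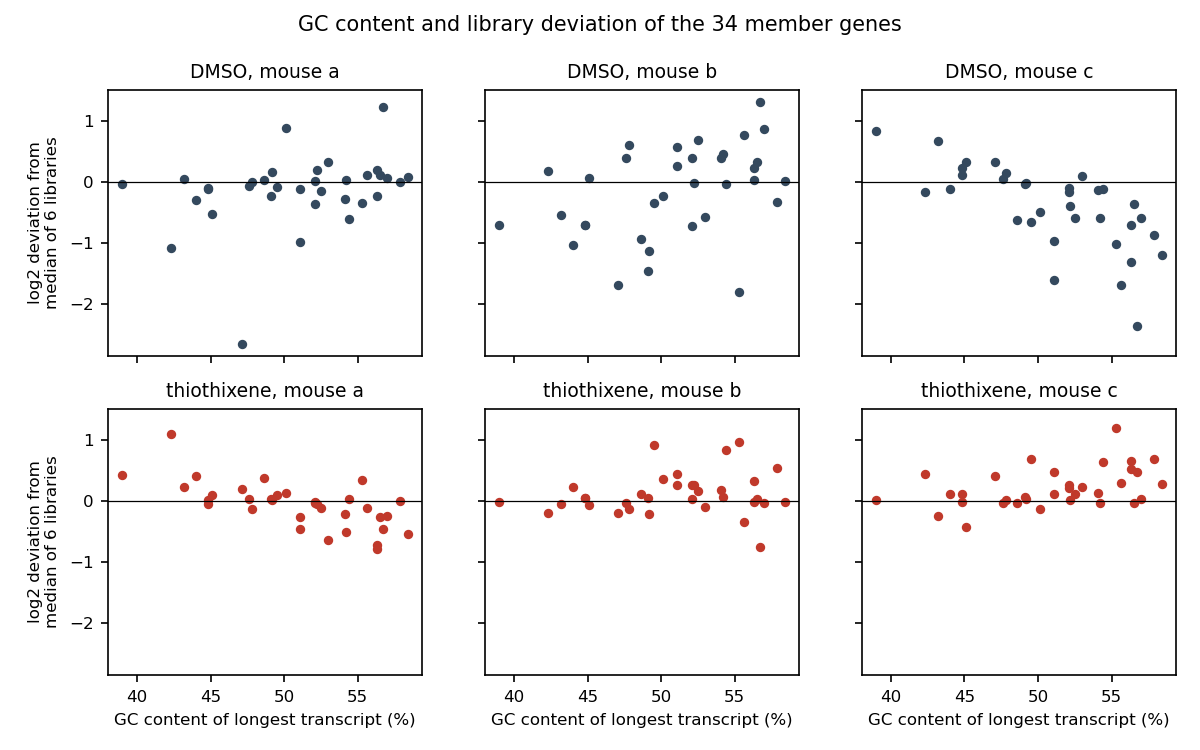
GC content of the longest transcript (percent) against the log2 deviation of a library from the median of the 6, a panel per library and a point per gene, 34 genes. The points slope downwards in the DMSO c library (r = -0.70) and the thiothixene a library (r = -0.68).

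Other genes of fatty acid, glycerolipid and droplet metabolism, 84 of which 65 were abundant enough to test, lay evenly around 0, with 33 above, 32 below and a median of 0.00. None was called by edgeR, DESeq2 or limma-voom. At an unadjusted p under 0.05 in edgeR, 1 was higher and 1 lower (0.882% and 0.841% of all tested genes were). Groups were apart for 2 higher (3.08% against 3.88% of all tested genes) and 1 lower (1.54% against 2.77%). The shares with groups apart were no larger than those of all tested genes. Fabp4, a fatty acid carrier of macrophages and adipocytes, measured 171, 146 and 119 CPM with thiothixene and 34.8, 115 and 62.8 CPM with DMSO (fitted log2 fold change 1.04, SE 0.44). Lpcat2, an acyltransferase of phospholipid remodelling, measured 44.5, 32.5 and 36.1 CPM against 73.2, 52.6 and 55.1 CPM (-0.68, SE 0.29). Insig1, which retains the SREBP escort protein in the endoplasmic reticulum and is itself an SREBP target, measured 109, 128 and 111 CPM against 75.5, 83.3 and 77.8 CPM (0.56, SE 0.25). In each of these 3 genes the libraries of the groups did not overlap.

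Neighbouring lipid pathways lay on either side of the members. Of 23 tested genes of cholesterol synthesis and SREBP2 control, 20 were above 0 (87% against 45.3% of all tested genes), with a median of 0.40, and 5 were higher in every thiothixene library (21.7% against 3.88%). Among these was lanosterol synthase, Lss, at 36.9 ± 6.38 against 18.4 ± 7.81 CPM (SD, n = 3). Of 24 tested genes of fatty acid oxidation, 5 were above 0 (20.8%) and 19 below, with a median of -0.24, and 3 were lower in every thiothixene library (12.5% against 2.77%). Eci2, an enoyl-CoA isomerase, measured 32.02 ± 0.508 against 46.7 ± 14.9 CPM, and Cpt2, which reforms acyl-CoA inside mitochondria, 18.2 ± 2.35 against 24.1 ± 4.23 CPM. Without the DMSO b library the oxidation genes were above 0 for 13 of 24, with a median of 0.00. No gene of either list was called, and the difference between the lists was not tested.

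**Figure D5:**
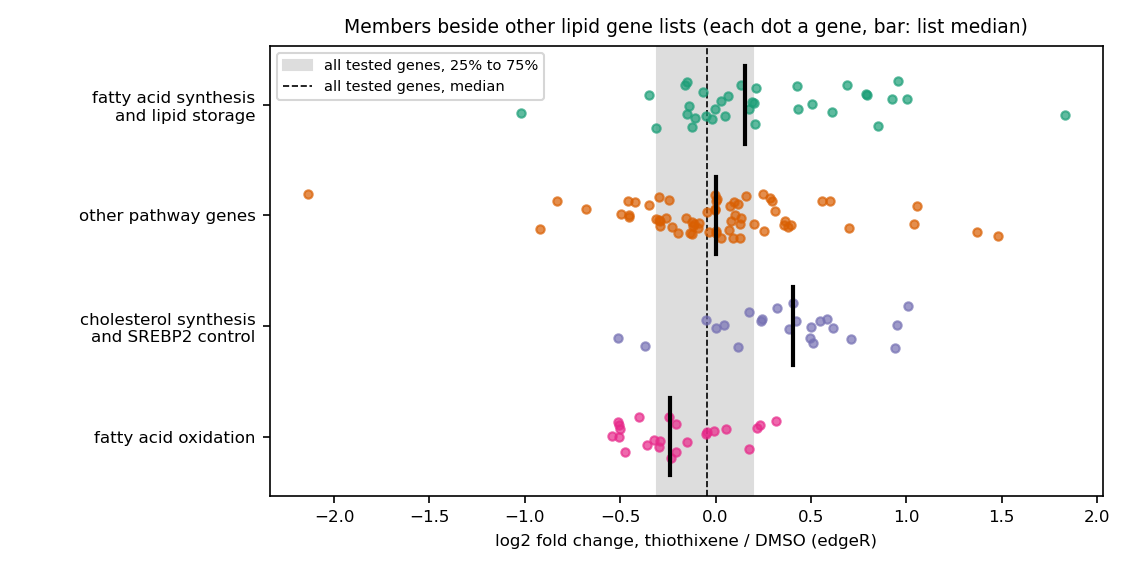
Log2 fold changes, thiothixene over DMSO, of the tested genes of 4 lipid gene lists (dots, 1 per gene) with list medians (bars), over the range from the 25% to the 75% point of all tested genes (grey band). Medians are 0.16 for fatty acid synthesis and lipid storage, 0.00 for other pathway genes, 0.40 for cholesterol synthesis and -0.24 for fatty acid oxidation.

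A fit without the thiothixene a library and the DMSO b and DMSO c libraries called 8 members, 7 higher (Mid1ip1, Fasn, Scd2, Fads2, Plin2, Hilpda and Mgll) and 1 lower (Lpin1), where 6.99% of 15807 tested genes were called, 4.02% higher and 2.97% lower. With so few libraries left, 20 members were higher and 7 lower in every thiothixene library, beside 38.6% and 38.8% of tested genes. In that fit edgeR's adjusted p was 0.000324 for Scd2, 0.000779 for Fasn and 0.00864 for Mgll, and the log2 fold changes were 0.90, 0.62 and 1.45. It set thiothixene libraries of mice b and c against a lone DMSO library of mouse a, so treatment and mouse cannot be told apart, and the spread of that single DMSO library was taken from the thiothixene pair.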

How the data were processed

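For each library the authors deposited a table of raw read counts by gene, without normalization. Per the submitters' processing notes, the tools were STAR 2.7.11b, Trim Galore 0.6.10, FastQC 0.11.8 and DESeq2 1.44, and mm10 was the build. Which program counted reads, with which annotation and strand setting, is not given in the sources used here. Rows that name no gene stayed out of library sizes and tests; reads outside any gene were 43.07% to 44.35% of all rows' counts per library. Symbols, positions, exon lengths and GC content came from GENCODE for GRCm38, where 52073 identifiers matched without version and 4618 did not (0.4% of gene counts).

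Genes that passed edgeR's expression filter (14856) were scaled by TMM and tested with the robust quasi-likelihood fit of edgeR 4.0.16 in R 4.3.3, with treatment as sole term and Benjamini-Hochberg adjustment at 0.05. The SE was derived from the fitted fold change and the F statistic. Replicates came from different mice, per the labels. Alternatives were the mouse as a block, RLE factors, no filter, CPM at least 1 in 3 libraries, DESeq2 1.42.0 and limma-voom (limma 3.58.1) on the filtered genes, offsets for GC content and length (splines, 5 degrees of freedom), and leaving out libraries. Within-mouse differences and deviations use log2 CPM with a prior count of 2. The procedure was tested on simulated data. Members, lists, motifs and alternatives were chosen with earlier results of these data known. All members are named; values in every library are given where groups did not overlap, for the member of highest mean CPM in each role, for Srebf1 and at an unadjusted p under 0.05, and of other lists for the genes of smallest p, of which 1 is not reported here. Gpam, Hilpda, Insig1 and the low-count genes were given so after their values were seen, as were the counts of members whose groups do not overlap when libraries are left out. The labels' titles name mouse a, b or c for each library, 1 per treatment, so the letters pair the samples, and the correlation of same-letter deviations was -0.131, 0.318 and -0.301 for mice a, b and c.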

Additional observations from a re-analysis of the deposited data

How the results depend on the processing

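The DMSO libraries were widely spread, and Acacb, Scd1, Elovl7 and Dgat2 had few counts. The part of either in the width of the intervals was not tested. The count of called members was 0 in every alternative that kept at least 5 libraries. The replicate block changed no call: 0 genes and 0 members were called with it, and 25 of 34 members were above 0. The count of called genes was 1 without a low-count filter, 8 in DESeq2 and, without the 3 libraries that stand apart, 1105 (members 8, other pathway genes 14, cholesterol genes 10). Members above 0 ran from 19 to 26. Of 34 members, 14 kept 1 direction in all alternatives, 13 higher and 1 lower (Acss2). Oxidation genes above 0 were 8 in limma-voom, 8 without the 3 libraries and 4 to 13 with single libraries left out. A count of members whose groups do not overlap cannot fall when libraries are left out. Members of this kind numbered 6 to 9 higher with single libraries left out (5.14% to 11% of tested genes). They numbered 0 to 3 lower (4.02% to 10.6%). Without the 3 libraries they numbered 20 higher and 7 lower (38.6% and 38.8%). Signs of log2 fold changes turned without the 3 libraries that stand apart for Me1 0.311, Fads1 -0.039, Elovl1 0.293, Acsl4 0.05, Acsl5 0.039 and Lpin2 -0.236. They turned in limma-voom for Acacb 0.619, Elovl1 0.09, Acsl4 0.1, Lpin1 0.043 and Lipe 0.353. They turned with the replicate block for Elovl1 0.075, Acsl4 0.127, Lpin1 0.073 and Lipe 0.175. They turned without a low-count filter for Elovl1 0.024 and Acsl4 0.018. They turned with GC and length offsets for Elovl1 0.073 and Acsl4 0.047. They turned with GC and length offsets and the replicate block for Elovl1 0.087, Acsl4 0.059 and Lipe 0.081. With single libraries left out, signs turned in 18 members, whose log2 fold changes ran over these ranges: Srebf1 -0.099 to 0.421, Me1 -0.305 to 0.104, Fads1 -0.005 to 0.283, Fads3 -0.338 to 0.085, Elovl1 -0.262 to 0.416, Acsl1 -0.025 to 0.428, Acsl3 -0.398 to 0.21, Acsl4 -0.299 to 0.498, Agpat3 -0.389 to 0.119, Agpat4 -0.094 to 0.254, Lpin1 -0.304 to 0.507, Lpin2 -0.124 to 0.427, Dgat1 -0.308 to 0.02, Dgat2 -0.227 to 0.503, Plin2 -0.081 to 0.304, Plin3 -0.254 to 0.492, Pnpla2 -0.595 to 0.15 and Lipe -0.503 to 0.493. The cause was not tested.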
